A study of Mus musculus with 2 samples.

Results

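The Mir297, Mir466, Mir467 and Mir669 genes are rodent miRNA families that were multiplied in tandem within the gene Sfmbt2. Members were taken from the gene symbols of the annotation: every symbol made of 1 of the 4 family names followed by nothing, a letter, or a letter and a copy number. This gave 80 of the 2202 miRNA genes in the tables, with 28 in Mir466, 30 in Mir669, 17 in Mir467 and 5 in Mir297. Of the 80, 71 lie inside Sfmbt2 and 9 lie elsewhere. The members were measured in adrenal glands of C57BL/6J mice, an inbred strain, by sequencing RNA shorter than 30 nt from total RNA. The series holds 1 group with 2 replicates, which the labels call biological replicates and which carry different biosample records but a single donor record. Whether they came from separate animals is not stated. The p-values set the difference between these libraries against counting noise only, and that difference may be technical. The labels leave age and developmental stage unknown. Sex is labelled as not collected, although a free-text label calls the tissue male and wild type, and neither replicate had a treatment in the labels. With 1 group there is no contrast of conditions.

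A miRNA is cut from a hairpin in a longer transcript, and its seed, the bases near its 5′ end, pairs with target mRNAs. Sfmbt2 encodes a Polycomb-group protein that is imprinted and expressed from the paternal allele in the mouse placenta and early embryo. Its large intronic miRNA cluster is absent from human SFMBT2 and is best known for its role in the growth of the placenta. Many hairpins of the cluster are near copies of each other and hold runs of alternating purines and pyrimidines, such as repeats of CA or of UG.

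Levels are in CPM, the count in the column read as the sense strand for a gene, scaled to a total of 1000000 over all miRNA genes of a library. They are given per gene and not per length, since the inserts have the size of mature miRNAs. Replicate 1 held 10263894 assigned counts and replicate 2 held 3525666. Reads that mapped to several places were set aside by the authors in a line of their own and entered no gene. That line held 6718323 reads in replicate 1 and 2415794 in replicate 2, which is 552 and 691 reads for each count given to a member. The line covers the whole library, and how many of its reads came from members is not recorded. For a member without a count, little RNA and reads set aside as multimapping cannot be told apart in these tables. A check of the tissue by marker miRNAs was partial, since no miRNA gene defines the adrenal cortex. Neuroendocrine Mir375 had 68022 and 76044 CPM, and Mir7b, also found in neuroendocrine cells, had 4743 and 3557. Endothelial Mir126a had 89916 and 95595 CPM and Mir143 of smooth muscle had 24738 and 25539. Of the markers of other organs, Mir206 of skeletal muscle had 2.14 and 2.55 CPM, but liver Mir122 had 104 and 97.6 CPM. These Mir122 values lie within the range of the members at 10 CPM or more. The source of the Mir122 reads was not tested.

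The set of RefSeq mature sequences used here (build GRCm38.p6) covers 8 of the 80 members, all outside Sfmbt2. These 8 need not be all that RefSeq has for the members. The 8 sequences are shown because they carry the repeat character of the families and because their genes had almost no uniquely placed reads. Capitals mark the seed, bases 2 to 8 from the 5′ end.
miR-466q: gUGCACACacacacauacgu
miR-467f: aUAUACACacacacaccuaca
miR-466i-3p: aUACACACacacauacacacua
miR-467g: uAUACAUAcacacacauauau
miR-466k: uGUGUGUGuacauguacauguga
miR-466j: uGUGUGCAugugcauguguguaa
miR-467h: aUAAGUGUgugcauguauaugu
miR-669n: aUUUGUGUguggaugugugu

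On this build miR-466q lies at chr3:28419988-28420007, miR-466k at chr3:85467396-85467418 and miR-669n at chr3:115979905-115979924, all on the plus strand. On the plus strand lie also miR-467h (chr9:115381898-115381919), miR-466j (chr10:60960802-60960824) and miR-466i-3p (chr13:17747552-17747573). On the minus strand lie miR-467g (chr5:34732872-34732892) and miR-467f (chr11:69635419-69635439).

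The first 4 of these sequences are made mostly of A and C, from 14 of 20 bases in miR-466q to 19 of 22 in miR-466i-3p. The last 4 are made mostly of G and U, from 15 of 22 bases in miR-467h to 18 of 20 in miR-669n. In miR-466q and miR-467g purines and pyrimidines alternate over the whole length, 20 and 21 nt. In miR-669n the longest alternating run is 8 nt. All 8 seeds differ from each other. The RefSeq set used here holds no mature form of the members inside Sfmbt2, so seeds shared with them could not be seen. Among the 1679 mature names in that set, the seed of miR-467h, UAAGUGU, recurs in 1 other, miR-668-5p.
miR-668-5p: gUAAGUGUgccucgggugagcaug

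The sequence of miR-668-5p lies at chr12:109734733-109734756 on the plus strand. Its gene Mir668 lies in the imprinted Dlk1-Dio3 region of chromosome 12 and had 172 and 247 CPM in replicates 1 and 2. The whole of miR-467h also stands in 2 neighbouring hairpins on chromosome 9, Gm26303 (chr9:115381960-115382078) and Gm25510 (chr9:115382099-115382221). Mir467h, Gm26303 and Gm25510 all had 0 counts in both replicates. A piece of 16 nt of miR-466k recurs in 13 other members and one of miR-466j in 14, whereas no such piece of miR-466q or miR-467f was found in another member.

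Together the 80 members took 0.119% of assigned counts in replicate 1 (Wilson 95% interval 0.117% to 0.121%) and 0.0992% in replicate 2 (0.0959% to 0.102%), a mean of 0.109% ± 0.014 (SD, n = 2). The intervals cover counting error only, since copies of 1 molecule made by PCR cannot be told from separate molecules. At least 1 count was found for 11 of the 80 members (13.8%), against 34.8% of all miRNA genes. Of the 80, 6 (7.50%) reached 10 CPM in both replicates, against 12.1% of all miRNA genes. These 6 were Mir467c, Mir467d, Mir467e, Mir669c, Mir669l and Mir669o, and they held 99.0% of member counts in replicate 1 and 99.3% in replicate 2. In bulk tissue, few cells with a miRNA and little of it per cell cannot be told apart.

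By family, Mir467 took 75.0% ± 0.82 of member counts (SD, n = 2) from 3 of its 17 genes. Mir669 took 24.9% ± 0.84 from 6 of its 30 genes. Mir466, of nearly the same size as Mir669, took 0.098% ± 0.023 from 2 of its 28 genes. None of the 5 Mir297 genes had a count in either replicate. At 0 in both libraries were 26 Mir466, 14 Mir467, 24 Mir669 and 5 Mir297 genes, and a count of 0 allows up to 0.292 CPM of uniquely placed reads in replicate 1 and 0.851 CPM in replicate 2. The split between families was thus close in both libraries, with Mir467 at 74.4% and 75.6%. It is a split of uniquely placed reads only, and what each family would hold with the multimapping reads was not tested.

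Mir467d, the member with the most uniquely placed reads, had 4592 counts in replicate 1 and 1179 in replicate 2. This is 447 and 334 CPM (mean 391 ± 79.9, SD, n = 2). Mir467d stood at rank 105 of 2202 by mean CPM, so 104 miRNA genes were higher. The order of the members here is one of uniquely placed reads, and their order with multimapping reads was not tested. Mir467e had 2994 and 889 counts, or 292 and 252 CPM (272 ± 28). The CPM ranges of these neighbours in the order did not overlap, and Mir467d was 1.53 times as high as Mir467e in replicate 1 and 1.33 times in replicate 2. Mir467c had 1476 and 575 counts, or 144 and 163 CPM (153 ± 13.6). It was lower than Mir467e in both libraries.

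In the Mir669 family, Mir669o led with 1529 and 404 counts, or 149 and 115 CPM (132 ± 24.3). Its range overlaps that of Mir467c: Mir669o was the third member in replicate 1 and the fourth in replicate 2, so these genes are not ordered beyond their spread. Mir669c had 1059 and 242 counts, or 103 and 68.6 CPM (85.9 ± 24.4), below Mir669o in both libraries. Mir669l had 405 and 182 counts, or 39.5 and 51.6 CPM (45.5 ± 8.60), and it was below Mir669c in both. Mir669h fell between these members and those with few counts, with 90 and 15 counts, or 8.77 and 4.25 CPM (6.51 ± 3.19). Its level is thus under 10 CPM in both libraries.

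**Figure D1:**
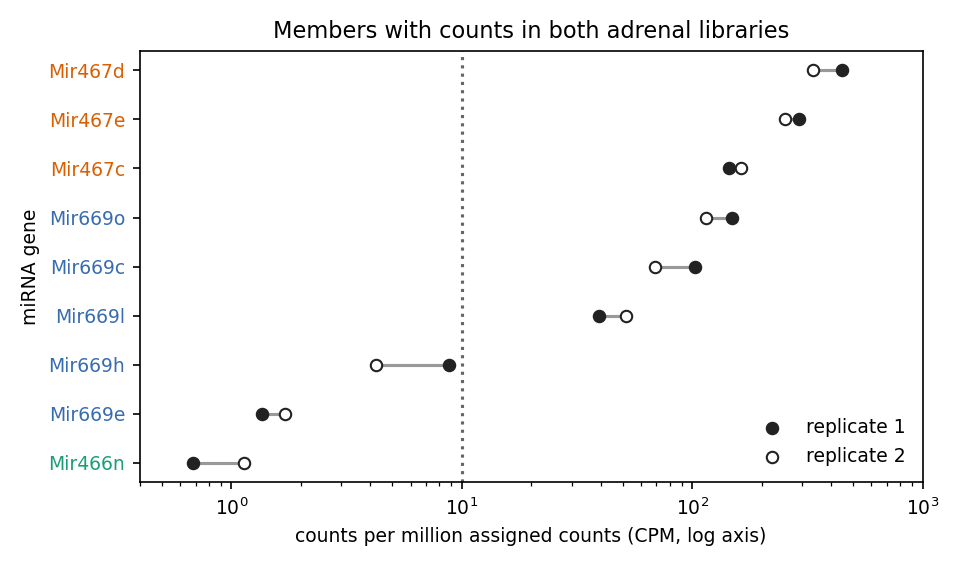
Level of the 9 members with counts in both adrenal libraries, in CPM on a log axis. Filled points are replicate 1, open points replicate 2, grey lines join them, and the dotted line marks 10 CPM. Mir467d is highest at 447 and 334 CPM, 6 members lie right of the line in both replicates, and Mir669h, Mir669e and Mir466n lie left of it.

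The other members with reads were close to the limit of the tables, where 1 count equals 0.0974 CPM in replicate 1 and 0.284 CPM in replicate 2. Mir669e had 14 and 6 counts, and Mir466n had 7 and 4. Mir669f had 4 counts in replicate 1 and 0 in replicate 2. Mir466q, on chromosome 3, had 3 and 0 counts and was the only member outside Sfmbt2 with a read in either library. For Mir669f and Mir466q, the 0 in replicate 2 allows up to 3 counts, so a difference between the libraries was not detectable at this depth. Every member had 0 counts in the column read as the opposite strand, and no member overlaps another miRNA gene of the tables.

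The 71 members inside Sfmbt2 form a tandem array on mm10 chromosome 2, from 10466663 to 10518279 on the plus strand. The array spans 51.6 kb, and all 71 lie in 1 intron on the strand of Sfmbt2 (chr2:10370510-10595253), which is intron 10 of 22 in one annotated transcript and intron 11 of 22 in another. Members inside Sfmbt2 held 12170 counts in replicate 1 and 3496 in replicate 2. The 9 members elsewhere held 3 and 0. In this small group Mir466q lies in an intron of Tnik on the same strand, 5 members lie in introns of protein-coding genes on the opposite strand, and Mir466j, Mir466f-4 and Mir467h lie outside protein-coding genes.

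Inside Sfmbt2 the members with reads stood at both ends of the array. At the 5′ end lay Mir669f, Mir669e, Mir669l (chr2:10468971-10469068, ENSMUSG00000076959.1) and Mir467c (chr2:10473931-10474027, ENSMUSG00000077049.2). Then followed 38 members in a row without a single count, from Mir466b-1 to Mir669a-12, over 29.7 kb. After this gap came Mir467e (chr2:10505721-10505807, ENSMUSG00000076948.2), Mir467d (chr2:10507630-10507714, ENSMUSG00000077021.2) and Mir669c (chr2:10509296-10509404, ENSMUSG00000076118.1). Mir466n, Mir669o (chr2:10514300-10514395, ENSMUSG00000077086.1) and Mir669h closed the array, among 11 further members at 0 between Mir669c and Mir669h. The longest run of zeros outside the central gap was 6 members.

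**Figure D2:**
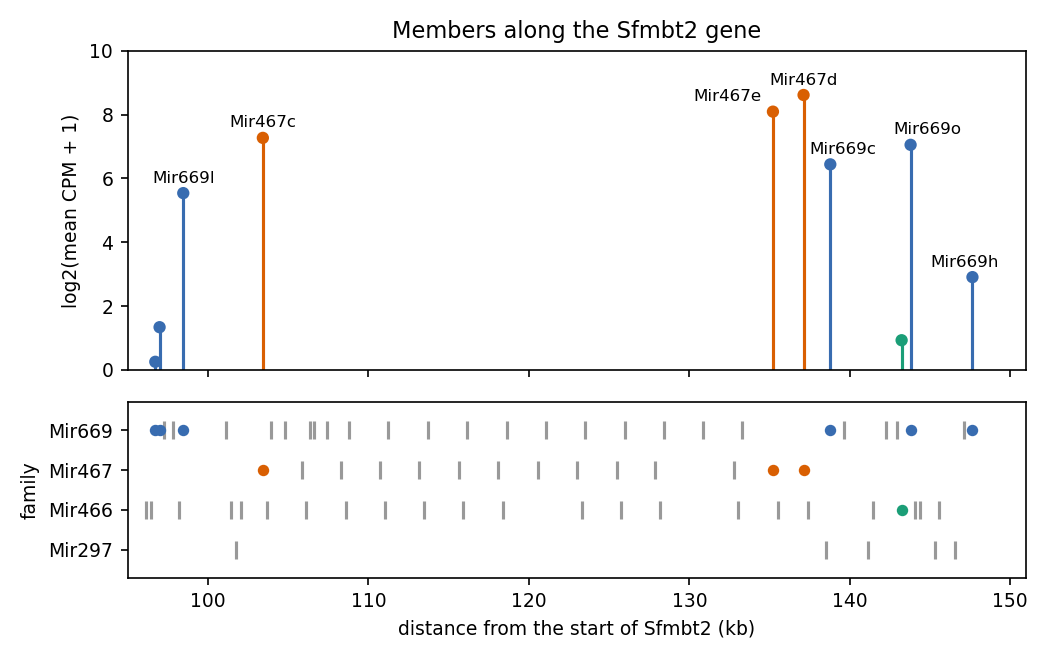
Members inside Sfmbt2 by distance from the start of the gene in kb. The upper panel gives log2(mean CPM + 1) of the 10 members with a count, and the lower panel marks all 71 members by family, with coloured points for members with a count and grey bars for members at 0. The middle of the array, between Mir467c and Mir467e, holds 38 members at 0, and the members with counts lie on both sides of it.

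The central gap holds 11 Mir466, 11 Mir467 and 16 Mir669 genes, mostly copies of Mir467a, Mir466b and Mir669a in turn. The starts of the 10 Mir467a copies lay 2413 to 4880 nt apart, with a median of 2462 nt. The median spacing was 2470 nt for the 8 Mir466b copies and 2457 nt for the 12 Mir669a copies. The 10 Mir467a genes have only 3 distinct hairpin sequences and the 12 Mir669a genes only 4, and none of these copies had a count. Another 33 miRNA genes with systematic Gm names stand in the same gap, and none of them had a count either.

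Hairpins of the members were compared with those of all other miRNA loci in the tables, on both strands. A stretch of 20 nt shared with another locus was found in 78 of the 80 members (97.5%), against 49.4% of all miRNA genes. The exceptions were Mir466g and Mir669n, which both had 0 counts. Of the 80 members, 24 have a hairpin identical to that of another member, and these 24 genes hold only 6 distinct sequences. None of the 24 had a count.

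How much of a hairpin is its own differed between members with and without reads. The measure is the percent of a hairpin's 20-nt stretches that occur at no other miRNA locus. Its median was 57.4% in the 11 members with a count, with a lowest value of 37.9% in Mir467d and a highest of 95% in Mir669e. Its median was 20.6% in the 69 members at 0, of which 32 have no 20-nt stretch of their own. Reads from such hairpins would mostly map to several places and so enter no gene, whatever their RNA level. The difference between the medians is thus not independent of the counting, and the parts of counting and of RNA level in it were not tested. Of those 32, 31 lie in the central gap, where the highest value was 32.7%. By family, the genes with no stretch of their own were 13 of 30 in Mir669, 10 of 17 in Mir467, 9 of 28 in Mir466 and 0 of 5 in Mir297, where the lowest value was 22.8%. The distance to the nearest other member behaved alike, with a median of 22 single-base edits in members with a count and 4 in members at 0. Members with a count lay 7 to 35 edits from their nearest member. Of the 69 at 0, 41 lay within 6 edits. This limit was set just below the lowest value of the members with a count, so none of those could lie within it. The distance reflects the same near copies as the own share and is no separate support.

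Among the members at 10 CPM or more, Mir467d and Mir467e are the closest pair, 7 edits apart, and Mir467c lies 16 edits from Mir467d. Mir669o lies 7 edits from Mir669a-1, which had 0 counts. The levels above count uniquely placed reads only, and what the members would gain from the multimapping reads was not tested. Of these 6 members, Mir467d has the smallest share of stretches of its own, 37.9%, and Mir669c the largest, 81.1%. Which arm of a hairpin gave the reads is not recorded in the tables.

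**Figure D3:**
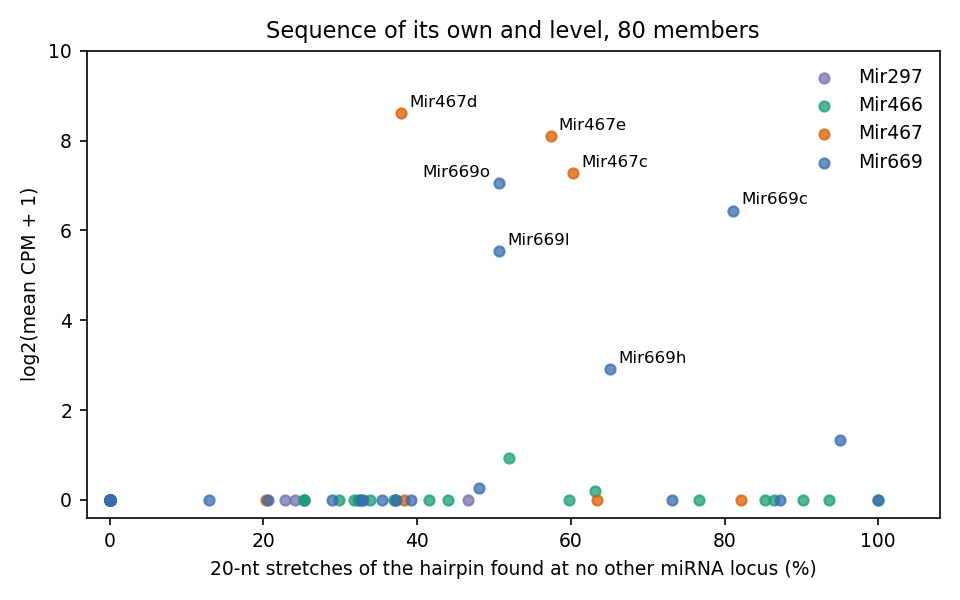
Mean level of each of the 80 members, as log2(mean CPM + 1), against the percent of its 20-nt hairpin stretches that no other miRNA locus holds. Points are coloured by family. No member below 37.9% has a count, while members at 0 are found along the whole axis, up to Mir466g and Mir669n at 100%.

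Members at 0 also included hairpins with much sequence of their own. Of the 69 members at 0, 17 had as large an own share as Mir467d or larger, and 10 exceeded 70%. Of these 10, 5 lie in Sfmbt2, namely Mir669b (87.2%), Mir466g (100%), Mir466h (93.5%), Mir466l (85.3%) and Mir669i (73.1%). The other 5 lie elsewhere, namely Mir466k (76.7%), Mir669n (100%), Mir466j (86.4%), Mir467f (82.2%) and Mir466f-4 (90.2%). Mir466g, Mir466h, Mir466l and Mir669i stand next to each other with 2 Mir297 copies between the expressed Mir669o and Mir669h. Other places of the genome were not searched, because no genome sequence was used here, so a stretch called own may still recur outside miRNA genes. The measure also covers the whole hairpin, so the mature miRNA itself may be shared where other parts are not. Of the 8 members with a mature sequence at hand, this was so for 1, Mir467h, with an own share of 38.2%. For members inside Sfmbt2 no mature sequence was at hand, and their mature sequences were not compared.

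Alternating purines and pyrimidines were common to the members. The longest such run in a hairpin had a median of 25 nt over the 80 members and 6 nt over all 2202 miRNA genes. A run of 25 nt or more was found in 8.48% of the other miRNA genes. It was found in 41 of the 80 members, a share fixed by taking their own median as the limit. The median was 40 nt in Mir297, 27 nt in Mir466, 21 nt in Mir467 and 20.5 nt in Mir669. Members with a count had a median of 26 nt and members at 0 one of 24 nt. The longest run of all members was 101 nt, in Mir467g on chromosome 5, and the shortest was 12 nt, in Mir669n.

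Inside Sfmbt2 the annotation has 48 further miRNA genes, all on the strand of the host and with Gm names. Of these, 4 (8.33%) had a count, against 10 of the 71 members inside Sfmbt2 (14.1%) and 34.8% of all miRNA genes. Together the 48 held 9 counts in replicate 1 and 3 in replicate 2, against 12170 and 3496 for the members there, and none of the 48 reached 10 CPM. Gm22072 had 3 and 2, Gm22239 had 2 and 1, Gm22925 had 3 and 0, and Gm25263 had 1 and 0. All but 1 of these 48 hairpins have 20 nt in common with some other miRNA locus.

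As another imprinted miRNA cluster, the genes from Mir379 to Mir410 on chromosome 12 are set beside the members. Of its 43 genes, 36 had counts and 31 (72.1%) reached 10 CPM in both replicates, against 6 of the 80 members. This cluster took 4.03% of assigned counts in replicate 1 and 3.65% in replicate 2, against 0.119% and 0.0992% for the members. Its hairpins have a median of 100% of 20-nt stretches of their own, against 27.1% for the members, and 5 of 43 share a stretch with another locus. The values are a description of 2 clusters that differ in copy number, and the difference between them was not tested.

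The replicates were compared gene by gene with an exact two-sided binomial test against the split expected from TMM-scaled library sizes, with Benjamini-Hochberg adjustment over the 443 miRNA genes with at least 10 counts. This test sets 2 libraries against counting noise and compares no conditions. Of the 9 members tested, 7 differed between the libraries, against 52.8% of all genes tested. Mir467d, Mir467e, Mir669o, Mir669c and Mir669h were higher in replicate 1, a direction taken by 31.6% of all genes tested. Mir467c and Mir669l were higher in replicate 2, a direction taken by 21.2%. With no minimum count, 6 members differed, and Mir467c did not pass (adjusted p = 0.071 by the exact binomial test). Mir669e and Mir466n, with 20 and 11 counts in all, did not pass.

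The 7 differences reached 2.03-fold at most. The log2 ratio of replicate 2 over replicate 1 was -0.44 for Mir467d (exact 95% interval -0.53 to -0.34; adjusted p = 6.1e-21 by the exact binomial test) and -0.23 for Mir467e (-0.34 to -0.12; adjusted p = 7.9e-05). The ratio was -0.60 for Mir669c and -0.39 for Mir669o. Mir669h had the widest gap, -1.02 (-1.96 to -0.26; exact binomial test, adjusted p = 0.014), from its 90 and 15 counts. In the other direction, Mir669l had 0.37 and Mir467c 0.16 (0.02 to 0.30; exact binomial test, adjusted p = 0.042). The median over the 9 members was -0.23, beside -0.17 over all genes tested. The libraries also differed in erythroid Mir451a, with 8085 and 1685 CPM, and in the share of reads assigned, 49.8% and 33.2%, and the part of these in the spread of the members was not tested.

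**Figure D4:**
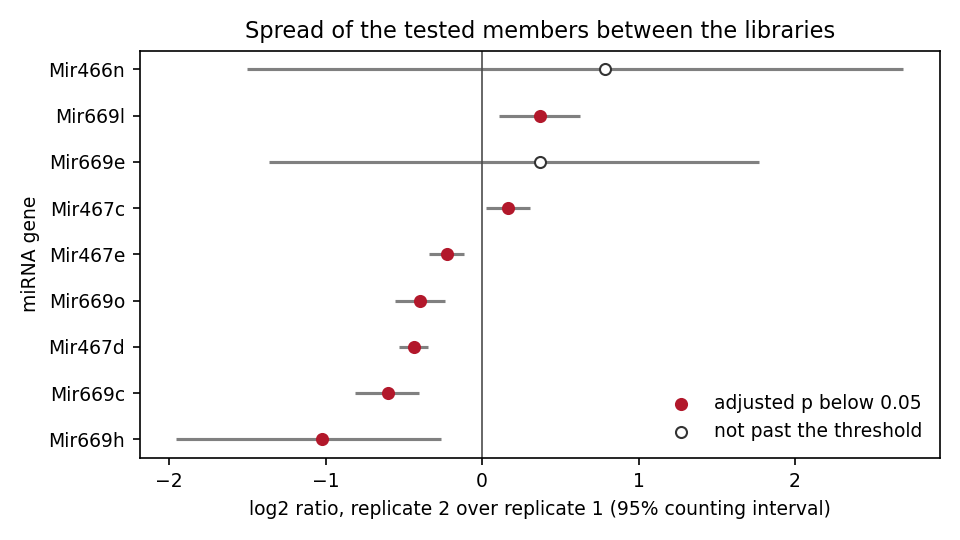
Log2 ratio of replicate 2 over replicate 1 for the 9 members with at least 10 counts. Lines are exact 95% binomial intervals, which cover counting error only, and filled points passed an adjusted p of 0.05. The ratios of 5 members lie below 0 with intervals that end below it, from -0.23 for Mir467e to -1.02 for Mir669h, and Mir669e and Mir466n have intervals that cross 0.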

How the data were processed

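MicroRNA sequencing of 2 adrenal libraries was analysed from raw counts that the authors deposited, 1 table per library. The accompanying description files name build mm10 and annotation GENCODE M21, and the labels' protocols link adapter trimming. Aligner and counting tool were not given in the sources used here. The tables name none of their 3 count columns. The columns were read as unstranded, sense and antisense from their sums and summary lines, which is an inference. The sense column was used, without the 4 summary lines, and all identifiers matched GENCODE M21.

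CPM was computed over assigned counts. TMM factors of 0.994 and 1.006 came from edgeR 4.0.16 (R 4.3.3), and ratios had 0.5 counts added. Hairpins came from GENCODE M21 transcripts and were compared with edlib 1.3.9.post1 in Python 3.11.15 with scipy 1.17.1. Genes overlapping at 1 locus were not counted as sharing. The binomial and shared-stretch code was tested on simulated data. DESeq2 1.42.0 size factors were an alternative.

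The text names every member with at least 10 counts, the highest of the rest, and members at 0 where a sequence comparison needs them. Members at 0 with over 70% of stretches of their own were named after their values were seen. The members and lists were chosen with earlier results of these data known.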

Additional observations from a re-analysis of the deposited data

How the results depend on the processing

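The number of members at 10 CPM stayed at 6 with a threshold of 5 CPM, in the column without strand and with every symbol that begins with a family name, which adds only Mir297-1 at 0 counts. It was 8 at 1 CPM and 4 at 100 CPM, and 6 in each replicate alone. The share of assigned counts was 0.124% instead of 0.109% in the column without strand. All 80 members had the same counts in both columns, so only the total over all miRNA genes was smaller there. Over all mapped reads, a larger denominator, the share was 0.0623%. It ran from 0.0992% to 0.119% with 1 replicate left out. In the column without strand, the same counts over the smaller total raised the level of every member with reads. The mean level was 175 CPM for Mir467c and 310 CPM for Mir467e, both beyond 1 SD of the main value. Mir467d rose from 391 to 446 CPM, which is within its wider SD. The replicate test called 7 members under DESeq2 size factors, assigned totals, a minimum of 30 counts and the column without strand. Without a minimum it called 6, because more genes entered the adjustment, and Mir467c was lost (adjusted p = 0.071 by the exact binomial test, and 0.0018 to 0.042 under the others). Members at 0 that share a stretch were 67 at 20 nt, 68 at 18 nt and 67 at 22 nt. With the whole mature sequence, at hand for 8 members only, the number was 1. No paired analysis was possible because the series has 1 group, and no replicate comparison remains when 1 of 2 libraries is left out.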
